A study of Mus musculus with 8 samples.

Results

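Cholesterol synthesis, uptake and efflux were examined in the liver through 35 genes, chosen by name for their roles with earlier results of these data known. They are described here among the 11784 genes listed, and their counts beside the shares of all genes are no independent evidence. 34 of the 35 were found by their symbol, and Msmo1 was found under its older symbol Sc4mol. Synthesis enzymes make up 18 of them, uptake, efflux and esterification 13, and the control of the transcription factor SREBP2 the other 4. The livers came from male C57BL/6J mice that received an amino acid defined diet from 9 weeks of age for 4 months and were killed after an overnight fast of about 16 hours. The 4 Control mice (F129, F2212, F7111 and F2110) received diet TD.140711, and the 4 Low AA mice (H1126, H828, H817 and H1315) received diet TD.140712, in which amino acids supply a smaller share of the calories and carbohydrate a larger one. The labels name no other treatment. Each mouse gave 1 poly(A) RNA library, and all values are from whole liver in the fasted state, in which a change in cell number and a change in RNA per cell cannot be told apart.

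Hepatocytes make cholesterol from acetyl units through mevalonate, farnesyl diphosphate, squalene and lanosterol. SREBP2, carried by SCAP, is held in the endoplasmic reticulum by the INSIG proteins while sterols are plentiful, and when they are scarce it is cleaved and turns on the genes of nearly every step. The liver X receptors LXRα and LXRβ sense oxysterols and turn on genes that export cholesterol, among them Abca1 for high-density lipoprotein and the pair Abcg5 and Abcg8 for bile.

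Promoter windows, from 250 bases before to 50 bases after each RefSeq start, were at hand for 28 of the 35 genes in build GRCm38.p6 (mm10), and those of Fdft1, Sqle, Fdps, Soat2, Stard4, Scarb1 and Npc1 were not. A sterol regulatory element of SREBP2 was searched on both strands as TCACNCCAC, and in the overlapping short form CACCCCAC. The first was in the window of 1 of 15 synthesis genes, Hmgcs1, and in 1.53% of the 8500 listed genes with a window. The short form was in 2 of 15, Hmgcs1 and Acat2, against 3.8%. The box CCAAT, to which the SREBP partner NF-Y binds, was in 14 of 15 synthesis genes and in 9 of 13 other members, against 43.2% of the listed genes. A gene with several windows was counted if any of them held a match. A match here describes letters in a window and not a bound site.

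The windows before the start of 3 genes and the stretch between Abcg5 and Abcg8 are given with the capitals marking matches to TCACNCCAC and CCAAT on either strand. Hmgcs1 is shown for its sterol regulatory element, 137 bases before the start, Mvd as a synthesis gene with lower values on the Low AA diet, and Insig2 as the member with the highest log2 fold change. Insig2 has further windows, from 121327629 and from 121327975, with 0 CCAAT matches in each. The last stretch is shown because both genes have a start there in opposite directions, 109 bases apart, with no CCAAT between them. The whole windows around these starts reach beyond that stretch and hold 1 CCAAT match for Abcg5 and 2 for Abcg8. Abcg8 also has a further window from 84676052, with 0 CCAAT matches.
Hmgcs1, chr13:119690101-119690350, plus strand: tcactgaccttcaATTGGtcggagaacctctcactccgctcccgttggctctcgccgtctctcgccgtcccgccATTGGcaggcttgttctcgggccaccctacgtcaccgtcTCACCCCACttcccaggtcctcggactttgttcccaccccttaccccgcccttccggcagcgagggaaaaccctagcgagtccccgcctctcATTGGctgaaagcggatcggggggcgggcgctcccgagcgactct
Mvd, chr8:122443423-122443672, minus strand: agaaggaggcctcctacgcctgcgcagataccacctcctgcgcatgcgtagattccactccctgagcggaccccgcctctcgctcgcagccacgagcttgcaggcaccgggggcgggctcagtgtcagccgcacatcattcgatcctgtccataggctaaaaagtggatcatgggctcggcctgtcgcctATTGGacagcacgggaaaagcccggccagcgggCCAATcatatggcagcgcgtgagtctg
Insig2, chr1:121332590-121332839, minus strand: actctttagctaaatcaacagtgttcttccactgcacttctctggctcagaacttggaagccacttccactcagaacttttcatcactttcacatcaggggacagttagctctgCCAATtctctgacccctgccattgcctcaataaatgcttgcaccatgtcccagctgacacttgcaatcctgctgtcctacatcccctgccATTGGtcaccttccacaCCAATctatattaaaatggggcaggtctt
Abcg5 and Abcg8, chr17:84683012-84683120, plus strand, on which Abcg8 is read: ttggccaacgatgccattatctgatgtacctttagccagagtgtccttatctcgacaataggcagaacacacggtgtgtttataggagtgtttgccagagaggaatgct

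Values are scaled read counts, and differences are log2 fold changes of (value + 1), Low AA minus Control, tested with limma and adjusted by Benjamini-Hochberg over all listed genes. No member was called at an adjusted p under 0.05, which 0.399% of all genes passed. At an unadjusted p under 0.05 there were 10 of 35 members, 28.6%, against 11.8% of all genes. Of these, 9 were lower on the Low AA diet, against 6.7% of all genes that were lower at this level, and 1, Insig2, was higher. In 4 of 35 members, 11.4%, the Low AA and Control mice did not overlap, against 6.81% of all genes, and all 4 (Msmo1, Sqle, Tm7sf2 and Insig1) were lower on the Low AA diet. Among all genes, 3.55% did not overlap and were lower and 3.26% did not overlap and were higher. The order of the log2 fold changes, with their intervals, is plotted by role.

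**Figure D1:**
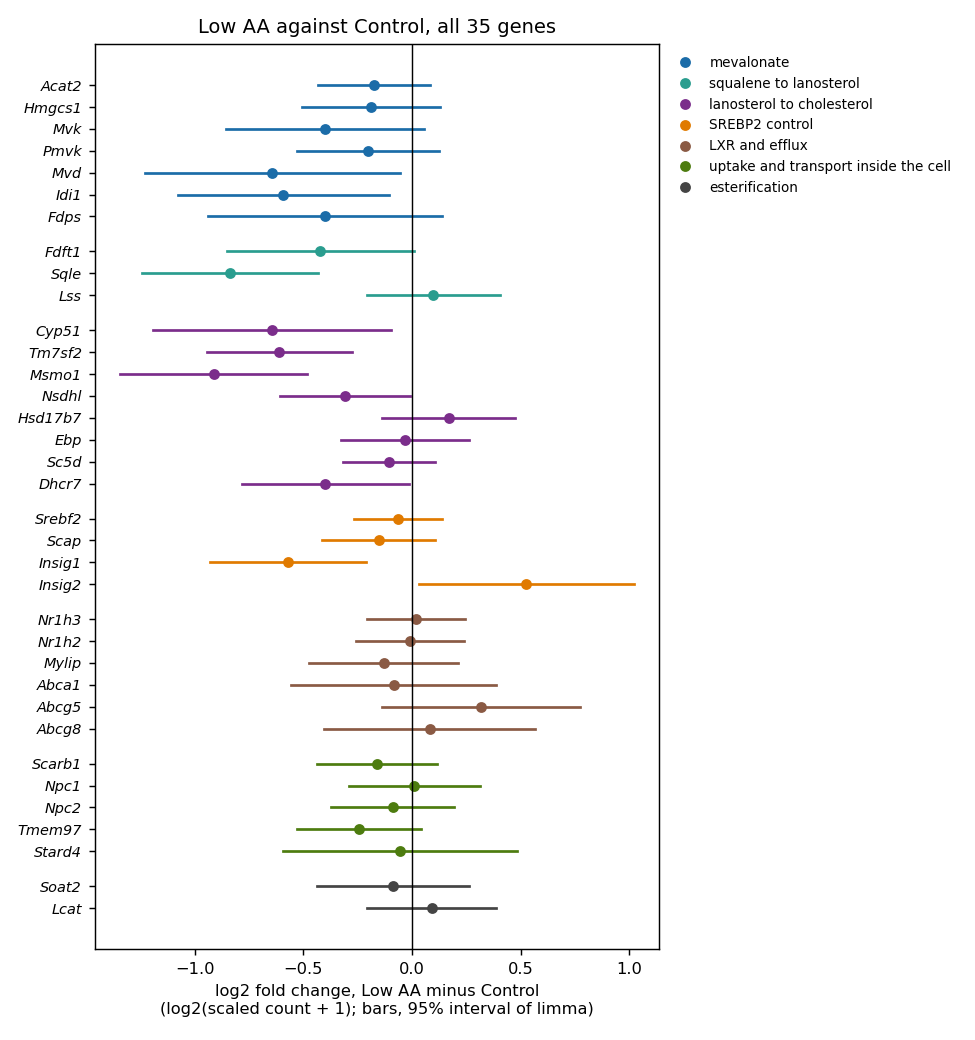
Log2 fold change of each of the 35 genes, Low AA minus Control, on the scale of log2(scaled read count + 1), with the 95% interval of limma (4 mice per diet), coloured by role. Of the 18 synthesis genes 16 lie below 0, and the 13 genes of uptake, efflux and esterification lie between -0.24 and 0.32.

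The synthesis genes had a negative log2 fold change in 16 of 18 cases, as did 5829 of all 11784 genes. The median log2 fold change of the synthesis genes was -0.40, where that of all genes was 0.0023. None of the 18 was called. At an unadjusted p under 0.05 there were 8 of 18 (44.4%), all lower, against 11.8% of all genes, or 6.7% counting only lower ones. The diets did not overlap in 3 of 18 (16.7%), all lower, against 6.81% of all genes, or 3.55% counting only lower ones. Of those 3, Sqle and Tm7sf2 are among genes that the study drew in a heat map for their difference in these mice, so they are no independent evidence of the direction. Within a diet the synthesis genes varied somewhat more than other genes, with a median residual SD of 0.26 on the log2 scale against 0.22 over all genes.

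Single mice carried much of these counts. Without Control mouse F7111, 10 of 18 synthesis genes did not overlap (all genes, 12.2%) and 11 of 18 had an unadjusted p under 0.05 (all genes, 13.3%). Without Control mouse F2110, 6 of 18 did not overlap (all genes, 10.2%). In the other direction, the number at an unadjusted p under 0.05 was 3 without Control mouse F129 (all genes, 10.6%), 4 when Control mouse F2212 was left out (12.4%) and 4 when H1126 of the Low AA mice was (9.26%). Of the 8 genes, Sqle, Tm7sf2 and Msmo1 stayed under 0.05 whichever mouse was left out, and Mvd, Idi1, Cyp51, Nsdhl and Dhcr7 did not.

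**Figure D2:**
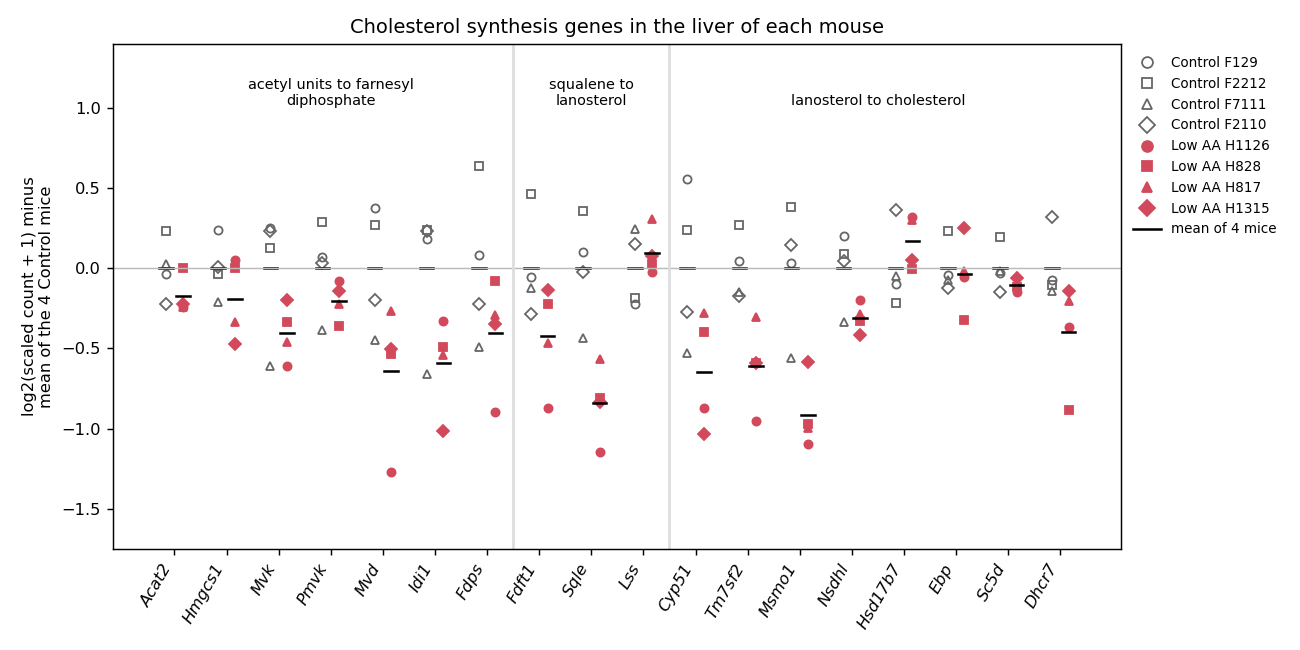
Each synthesis gene in each mouse, as log2(scaled read count + 1) minus the mean of the 4 Control mice, with open grey symbols for Control, filled red symbols for Low AA and black lines for means of 4 mice. The open triangle, Control mouse F7111, is the lowest Control value in 11 of 18 genes.

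The first steps build farnesyl diphosphate. All 7 of these genes had a negative log2 fold change, from -0.64 to -0.18, and in none did the diets separate. Mvd, mevalonate diphosphate decarboxylase, had scaled read counts of 93, 86, 52 and 62 in Control mice F129, F2212, F7111 and F2110, and of 29, 49, 59 and 50 in Low AA mice H1126, H828, H817 and H1315. Control mouse F7111 lay inside the Low AA range, and the counts are low. The log2 fold change of Mvd was -0.64 (standard error 0.26, unadjusted p = 0.0348, adjusted p = 0.376). Idi1, the isomerase that makes dimethylallyl diphosphate, had 926, 961, 515 and 958 in the Control mice and 648, 580, 560 and 403 in the Low AA mice, in the same order. Its 3 high Control mice lay close together, far above all Low AA mice, and F7111 lay among the latter. The log2 fold change of Idi1 was -0.59 (standard error 0.22, unadjusted p = 0.0214, adjusted p = 0.313).

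Hmgcs1, the cytosolic synthase that commits acetyl units to mevalonate, differed little between the diets. It had 2687, 2222, 1969 and 2296 in the Control mice and 2361, 2284, 1803 and 1646 in the Low AA mice, a log2 fold change of -0.19 with an interval from -0.50 to 0.13. Mvk, mevalonate kinase, ran from 89 to 163 on the Control diet and from 89 to 119 on Low AA. Fdps, farnesyl diphosphate synthase, ran from 512 to 1121 and from 387 to 682, with log2 fold changes of -0.40 for each gene (adjusted p = 0.499 and 0.58). That of Fdps was -0.19 without F2212 and -0.24 without H1126. Acat2, the cytosolic acetoacetyl-CoA thiolase, and Pmvk, phosphomevalonate kinase, had log2 fold changes of -0.18 and -0.20. Fdps shares 26.7% of its exon bases with an annotated gene on the same strand, Gm43738, so its reads are less certain.

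The next 3 enzymes turn farnesyl diphosphate into lanosterol. Sqle, squalene monooxygenase, a rate-limiting step of the later pathway, lies on chromosome 15 from 59315077 to 59331192 in GRCm38. It had 336, 401, 231 and 308 in the Control mice and 141, 178, 211 and 175 in the Low AA mice. Every Low AA value was below every Control value, with F7111 and H817 closest to each other. The means were 319 ± 70.4 (SD, n = 4) and 176 ± 28.6 (SD, n = 4), a log2 fold change of -0.84 (standard error 0.18, unadjusted p = 0.000929), and the adjusted p was 0.0897. Without F7111, Sqle was called at an adjusted p of 0.0484 (limma, Benjamini-Hochberg), while without H1126 its adjusted p was 0.22. Fdft1, squalene synthase, ran from 1207 to 2029 on the Control diet and from 805 to 1342 on Low AA, a log2 fold change of -0.42 (unadjusted p = 0.0532), which was -0.27 without F2212 and also -0.27 without H1126. Of its exon bases 18.3% lie opposite exons of Ctsb, and whether counting used the strand is not given in the sources used here. Lss, lanosterol synthase, went the other way, with 307 to 425 on the Control diet and 352 to 442 on Low AA and a log2 fold change of 0.097 (interval from -0.21 to 0.40).

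The last steps remove methyl groups from lanosterol and move its double bonds. Here 5 of 8 genes had an unadjusted p under 0.05, all lower on the Low AA diet, against 6.7% of all genes that were lower at this level. Msmo1, the methyl sterol monooxygenase, lies on chromosome 8 from 64718139 to 64733792 and had the lowest log2 fold change of the 35 genes. It had 1022, 1302, 679 and 1105 in the Control mice and 466, 509, 500 and 667 in the Low AA mice. The diets did not overlap, but F7111 at 679 was next to H1315 at 667. The means were 1027 ± 260 (SD, n = 4) and 536 ± 89.6 (SD, n = 4), a log2 fold change of -0.91 (standard error 0.19, unadjusted p = 0.000753), and the adjusted p was 0.0847. Without F7111, Msmo1 was called at an adjusted p of 0.0207 (limma, Benjamini-Hochberg), while without H817 its adjusted p was 0.272.

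Tm7sf2, a sterol reductase that acts just after Cyp51, lies on chromosome 19 from 6062821 to 6068373. It had 1790, 2088, 1566 and 1537 in the Control mice and 893, 1151, 1403 and 1148 in the Low AA mice. The highest Low AA mouse, H817, stayed below the lowest Control mouse, F2110. The log2 fold change of Tm7sf2 was -0.61 (standard error 0.15, unadjusted p = 0.00215, adjusted p = 0.131), and 12.1% of its exon bases are shared with exons of Vps51 on the same strand. Cyp51, lanosterol demethylase, had 1464, 1173, 689 and 820 in the Control mice and 541, 752, 819 and 485 in the Low AA mice. Its diets overlapped through F7111, which lay below H828 and H817, and F2110 was level with H817. The log2 fold change of Cyp51 was -0.65 (standard error 0.25, unadjusted p = 0.0254, adjusted p = 0.332).

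Nsdhl, which removes the carboxyl group left by Msmo1, ran from 213 to 309 on the Control diet and from 201 to 234 on Low AA, a log2 fold change of -0.31 (unadjusted p = 0.0452). Dhcr7, the reductase that yields cholesterol in one branch, ran from 632 to 870 and from 378 to 633, a log2 fold change of -0.40 (unadjusted p = 0.0438). Without Low AA mouse H828 that of Dhcr7 was -0.24 (unadjusted p = 0.121). The other enzymes of this stage had intervals that span 0. Hsd17b7, the ketosteroid reductase that works with Nsdhl, had 2013 to 3002 on the Control diet and 2329 to 2910 on Low AA, a log2 fold change of 0.17 (interval from -0.14 to 0.47). Ebp, the sterol isomerase, and Sc5d, the desaturase, had log2 fold changes of -0.034 (interval from -0.33 to 0.26) and -0.11 (interval from -0.32 to 0.10). Sc5d was tight, from 4340 to 4610 on Low AA and from 4333 to 5497 on the Control diet.

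Levels differ widely along the pathway once read counts are divided by exon length, as the plot of levels per length shows. Per 1000 exon bases in the Control mice, Ebp had 1694 scaled read counts and Sc5d 990, the highest levels of the synthesis genes. Sqle had 57.5, Mvk 52.5, Mvd 39.4 and Lss 33.5, the lowest of all 35 genes. The highest levels of the 35 were those of Lcat, 8910, and Insig2, 4420. Exon lengths are those of the union of all annotated exons of a gene, so a gene with long minor transcripts, such as Lss with 10787 exon bases, is understated.

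**Figure D3:**
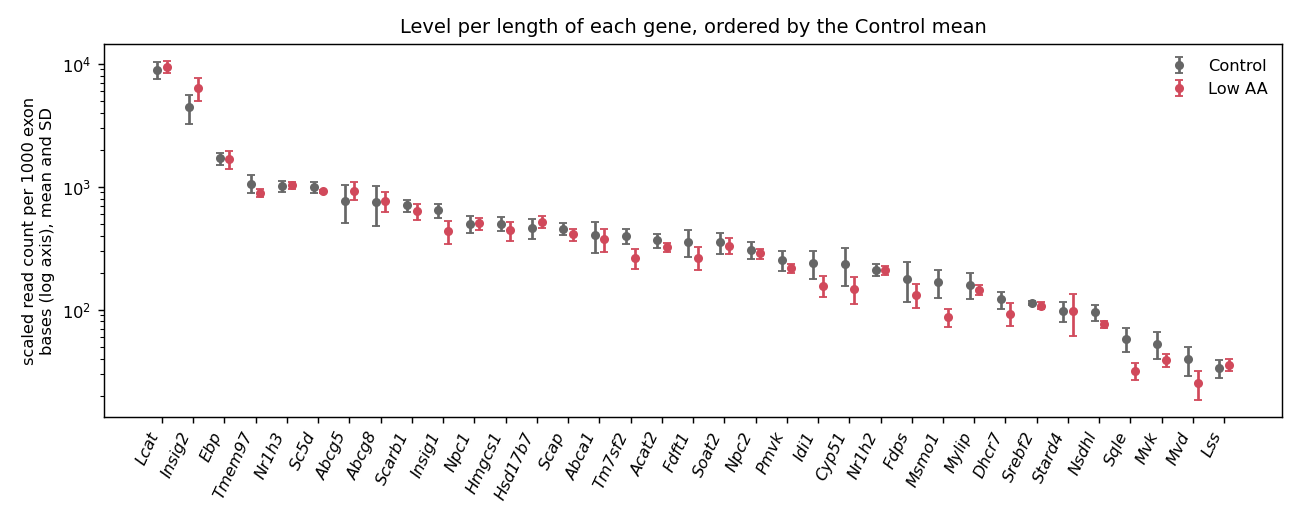
Mean and SD of the scaled read count per 1000 exon bases in the 4 Control (grey) and 4 Low AA (red) mice for each of the 35 genes, on a log axis, ordered by the Control mean. Levels run from 33.5 for Lss to 8910 for Lcat in the Control mice.

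The genes that control SREBP2 were split. Srebf2, which encodes the factor itself, had 775, 835, 795 and 836 in the Control mice and 738, 848, 773 and 742 in the Low AA mice. The diets overlapped, and the log2 fold change was -0.065 with an interval from -0.27 to 0.14, the narrowest of the 35. Scap, its escort, had a log2 fold change of -0.15 (interval from -0.41 to 0.11). The RNA of Srebf2 does not report how much of the protein was cleaved, which was not measured here.

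Insig1, which retains SREBP2 and is itself a target of it, lies on chromosome 5 from 28071363 to 28078662. It had 1719, 2073, 1815 and 2311 in the Control mice and 1057, 1548, 1139 and 1644 in the Low AA mice. All Low AA values were below all Control values, with H1315 and F129 closest. The means were 1980 ± 267 (SD, n = 4) and 1347 ± 292 (SD, n = 4), a log2 fold change of -0.57 (standard error 0.16, unadjusted p = 0.0051, adjusted p = 0.178).

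Insig2, the related retention protein, whose liver transcript is known to be lowered by insulin and higher in fasting, lies on chromosome 1 from 121304353 to 121332589. It went the other way, with 16115, 9523, 16891 and 18874 in the Control mice and 26644, 16039, 20606 and 23913 in the Low AA mice. Low AA mouse H828 lay inside the Control range, and Control mouse F2212 was far below all others. The log2 fold change of Insig2 was 0.53 (standard error 0.22, unadjusted p = 0.0388, adjusted p = 0.389). Without F2212 it was 0.31 (unadjusted p = 0.0927). In every mouse Insig2 had more scaled read counts than Insig1, and the ratio of the 2 was 9.38, 4.59, 9.31 and 8.17 in the Control mice and 25.2, 10.4, 18.1 and 14.5 in the Low AA mice. The ratios did not overlap between diets, and they were formed after the values had been seen, so no test is given.

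**Figure D4:**
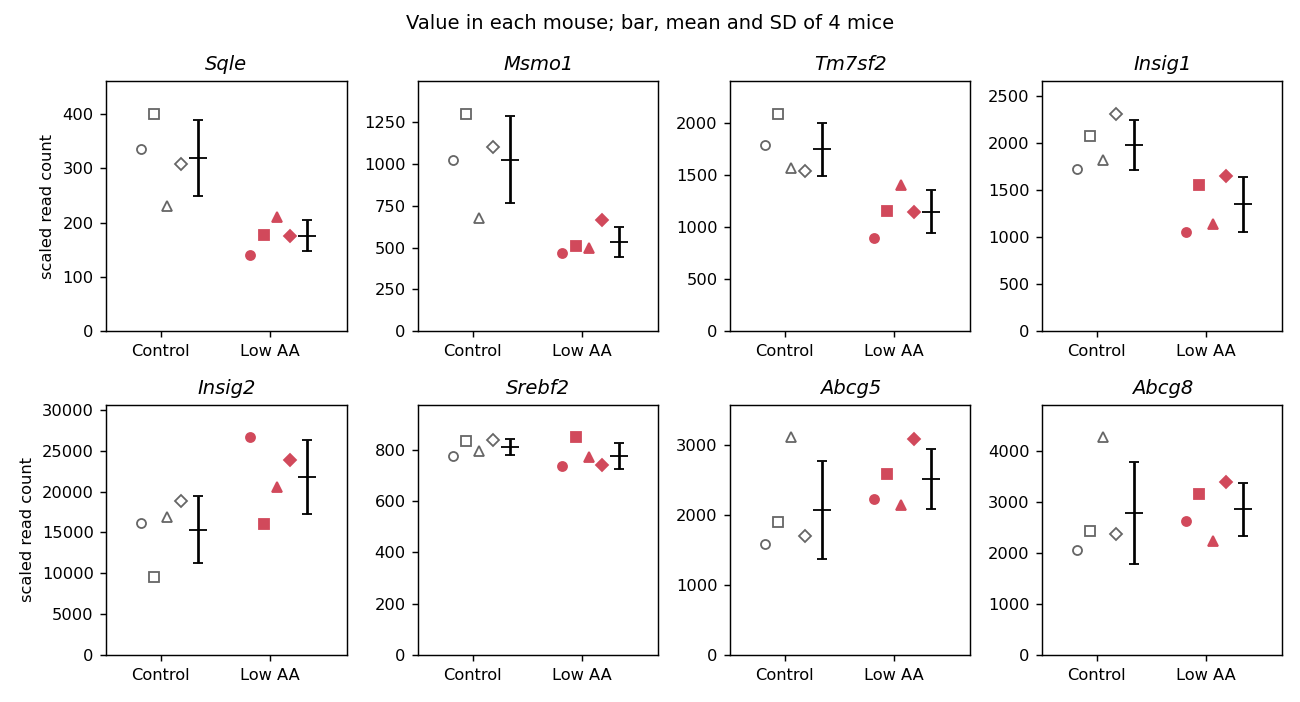
Scaled read counts of 8 genes in each mouse (open grey, Control; filled red, Low AA; symbols as in the plot of synthesis genes), with the mean and SD of 4 mice beside them and each axis starting at 0. Sqle, Msmo1, Tm7sf2 and Insig1 do not overlap between diets, and the other 4 do.

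Among the genes of uptake, efflux and esterification, 0 of 13 had an unadjusted p under 0.05, against 11.8% of all genes, and in 0 of 13 did the diets fail to overlap, against 6.81%. In a list of this size such counts are near those shares. Their median log2 fold change was -0.054, with a range from -0.24 to 0.32. The LXR genes differed little between the diets, with log2 fold changes of 0.018 for Nr1h3, which encodes LXRα (interval from -0.21 to 0.24), and -0.011 for Nr1h2, which encodes LXRβ (interval from -0.26 to 0.24). Mylip, an LXR target whose protein marks lipoprotein receptors for degradation, had 419 to 509 on Low AA and 445 to 698 on the Control diet (log2 fold change -0.13). Abca1 ran from 2773 to 5351 on the Control diet and from 3030 to 5034 on Low AA (log2 fold change -0.085, interval from -0.56 to 0.39).

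Abcg5 and Abcg8, partners in the transporter that moves cholesterol into bile, have starts 109 bases apart and ranked the mice in much the same way. Abcg5 had 1586, 1898, 3112 and 1702 in the Control mice and 2235, 2592, 2149 and 3084 in the Low AA mice. Abcg8 had 2069, 2431, 4275 and 2367 in the Control mice and 2633, 3163, 2242 and 3407 in the Low AA mice. Control mouse F7111 was the highest of the 8 for both genes, and the other 3 Control mice were below all Low AA mice for Abcg5. The log2 fold change was 0.32 for Abcg5 (interval from -0.14 to 0.77, adjusted p = 0.611) and 0.08 for Abcg8 (interval from -0.41 to 0.57). Without F7111 it was 0.53 for Abcg5 (unadjusted p = 0.00377, adjusted p = 0.155), while without F129 it was 0.21 (unadjusted p = 0.358) and without H1315 also 0.21 (unadjusted p = 0.348). The ratio of Abcg5 to Abcg8 was 0.767, 0.781, 0.728 and 0.719 in the Control mice and 0.849, 0.82, 0.958 and 0.905 in the Low AA mice. These did not overlap either, were likewise formed after the values had been seen and are given without a test. The genes share 82 exon bases on opposite strands.

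Among the carriers, Scarb1, the receptor that takes up cholesterol from high-density lipoprotein, ran from 5326 to 6723 on the Control diet and from 4942 to 6543 on Low AA (log2 fold change -0.16, interval from -0.44 to 0.12). Tmem97, a sterol-regulated membrane protein of the endoplasmic reticulum that binds NPC1, had the lowest log2 fold change of these 13 genes, -0.24 (unadjusted p = 0.0869). Npc1 and Npc2, which pass cholesterol out of lysosomes, had log2 fold changes of 0.011 and -0.09. Stard4, a cytosolic sterol carrier that SREBP2 turns on, had 427, 499, 624 and 633 in the Control mice and 446, 827, 562 and 349 in the Low AA mice. The lowest and the highest of these were both Low AA mice, and the log2 fold change was -0.054 with an interval from -0.59 to 0.48. Soat2, which esterifies cholesterol in hepatocytes, and Lcat, which does so in plasma, had log2 fold changes of -0.088 and 0.091.

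Mouse by mouse, the mean over the 18 synthesis genes, as log2(value + 1) minus the mean of the 8 mice, was 0.27, 0.38, -0.09 and 0.18 in Control mice F129, F2212, F7111 and F2110. It was -0.30, -0.17, -0.093 and -0.17 in Low AA mice H1126, H828, H817 and H1315. F2212 was the highest of the 8 mice for 9 of 18 genes, and H1126 the lowest for 7. F7111 sat with the Low AA mice, next to H817. Over the 13 genes of uptake, efflux and esterification the means ran from -0.12 to 0.096 in the Control mice and from -0.12 to 0.084 in the Low AA mice. These means are a description with no test.

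**Figure D5:**
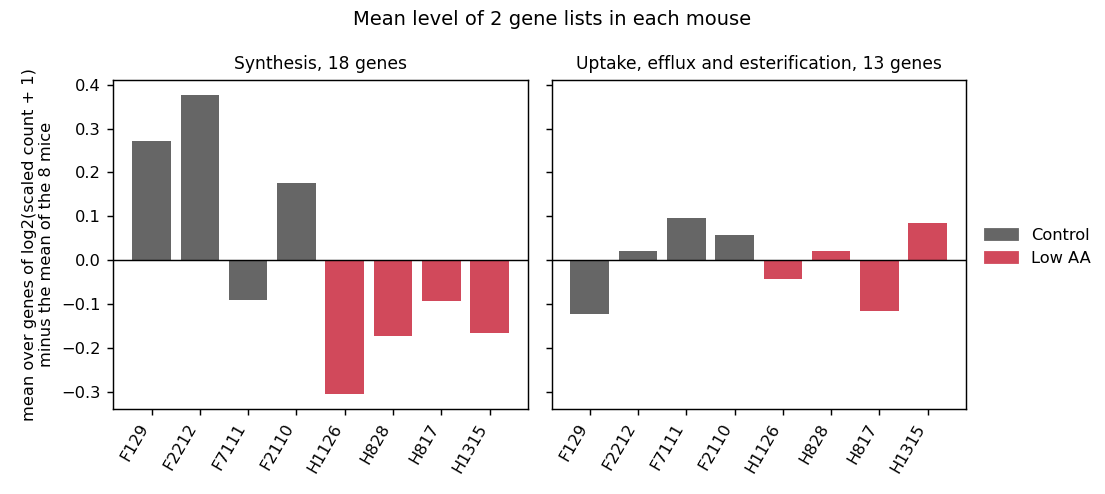
Mean over the 18 synthesis genes (left) and over the 13 genes of uptake, efflux and esterification (right) of log2(scaled read count + 1) minus the mean of the 8 mice, as 1 bar per mouse (grey, Control; red, Low AA). On the left 3 Control mice stand between 0.18 and 0.38, and F7111 and the 4 Low AA mice lie below 0; on the right both diets span 0.

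Other genes of the same pathways were listed by role, 60 in all, of which 55 are in the table. None was called, and 7 were lower and 3 higher at an unadjusted p under 0.05, together 18.2% against 11.8% of all genes. In 4 lower and 3 higher genes the diets did not overlap, together 12.7% against 6.81%. Their median log2 fold change was 0.0032. Among those that did not overlap and were lower were Pgrmc1, a heme protein that binds Cyp51, with a log2 fold change of -0.32, Pltp, the phospholipid transfer protein, with -0.51, and Cyp27a1, which makes 27-hydroxycholesterol, with -0.54 (adjusted p = 0.0847). Higher were Acat1, the mitochondrial thiolase, with 0.19, Cyp39a1, an oxysterol hydroxylase, with 1.09 (adjusted p = 0.0897), and Vldlr, the very low density lipoprotein receptor, with 1.31 (adjusted p = 0.0711). Vldlr had 52, 79, 44 and 46 in the Control mice and 180, 172, 104 and 102 in the Low AA mice. Cyp39a1 had 1194, 660, 1339 and 1325 in the Control mice and 1730, 2903, 2608 and 2174 in the Low AA mice.

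The 8 columns summed to between 27876664 and 30799385 after scaling, and 47 of the 11784 genes were called. All 7 hepatocyte markers were high in every mouse, at 11571 or more, and none was called. Control mouse F2212 stood apart in genes outside the pathway, with 36587 scaled read counts of the pancreatic gene Cela1 against 130 to 288 in the other mice, and 57733 of the acute-phase gene Saa1 against 68 to 2818. Summed over the 7 acute-phase genes, values ran from 197051 to 394151 on the Control diet and from 178493 to 218005 on Low AA. Of these genes Orm1 and Saa1 did not overlap between diets and were lower on Low AA. Orm1 had 11372, 16131, 9665 and 8111 in the Control mice and 2598, 955, 3274 and 5794 in the Low AA mice (log2 fold change -2.06, unadjusted p = 0.000948, adjusted p = 0.0908), and Saa1 had a log2 fold change of -3.49 (unadjusted p = 0.0135, adjusted p = 0.261). Summed over the 4 blood genes in the table, of 7 listed, values were 8295, 14090, 4409 and 8304 in Control mice F129, F2212, F7111 and F2110 and 6635, 4820, 4614 and 5052 in Low AA mice H1126, H828, H817 and H1315. In the Control mice both the blood genes and the synthesis genes were highest in F2212 and lowest in F7111. In the Low AA mice the extremes were opposite, with the blood genes highest and the synthesis genes lowest in H1126, and the reverse in H817. Between them, H1315 was above H828 for both. Of the blood genes, Alas2 did not overlap between diets, with 1362 to 2111 on the Control diet and 911 to 1332 on Low AA (log2 fold change -0.49, unadjusted p = 0.0141, adjusted p = 0.266). Cholangiocyte markers, 4 of 5 in the table, summed to between 1124 and 2265 in the Control mice and to between 826 and 1316 in the Low AA mice. Most of this sum was Spp1, with a log2 fold change of -0.37. The others have low counts, with log2 fold changes of -1.05 for Sox9, -0.87 for Krt19 and -0.20 for Epcam. The unadjusted limma p was 0.0169 for Sox9 and 0.0274 for Krt19 (adjusted p = 0.283 and 0.34), and the diets overlapped in both. Kupffer, stellate and endothelial cell markers overlapped between the diets in their sums. All 7 Kupffer cell markers had a positive log2 fold change, from 0.08 for Cd68 to 0.61 for Marco, as did 5955 of all 11784 genes. Of the stellate cell markers, the collagen gene Col1a1 did not overlap and was lower on Low AA, with 147, 70, 120 and 82 in the Control mice and 52, 37, 69 and 38 in the Low AA mice (log2 fold change -1.07, unadjusted p = 0.0032, adjusted p = 0.148), and Col3a1 had a log2 fold change of -0.48 (unadjusted p = 0.0609). The rest of the stellate cell markers went both ways. Rgs5 and Reln had log2 fold changes of 0.29 and 0.16, and Des, Lrat and Dcn had -0.29, -0.033 and -0.0165. Of the adipose markers 1 of 5 was in the table, from 2177 to 10846 on the Control diet and from 1911 to 9404 on Low AA, and of the pancreas markers 1 of 8, Cela1. The part of blood, bile duct cells, Kupffer cells, stellate cells or the acute phase in the values of the pathway was not tested.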

How the data were processed

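Liver poly(A) RNA was sequenced from 4 Control and 4 Low AA mice, and the mouse codes and diets were taken from the labels. The submitters' processing notes name bcl2fastq 1.8.2, STAR 2.5.0a, RSEM 1.2.6, edgeR 3.10.5, R 3.2.1 and the build mm10, without roles. The deposited signal values are whole numbers that behave as scaled and rounded read counts, and no source used here gives the authors' scaling, annotation or strand setting. Since they are not raw counts, no count model was used and no counting interval is given. The deposited table also holds the authors' own comparison, a score for the fold change and p-values adjusted for false discovery, which were not used. The 11784 genes were those the authors had listed, and no further filter was applied.

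Values were taken as log2(value + 1) and fitted over all genes in R 4.3.3, using limma 3.58.1, the diet as the only term, a trend of the variance with the mean and Benjamini-Hochberg adjustment. The spread is that between mice. The script was tested on simulated data. The 35 members, the lists of other genes and the markers were chosen with earlier results of these data known, and the motifs and ratios after the values had been seen. Every member is named. Of the other pathway genes, those called or without overlap between diets are named, except 1 that is not reported here, and of the marker and acute-phase genes those known to stand apart in 1 mouse, with Alas2, Col1a1 and Col3a1 added after their values were seen. Alternatives were other pseudocounts (0.1 and 5), the 8000 genes with the highest mean, equal totals, TMM scaling, no trend, robust moderation, vooma weights, a threshold of 0.1 and leaving out each mouse. Positions and exon lengths are from GENCODE on GRCm38, and promoter windows are from RefSeq on GRCm38.p6. Figures were drawn with matplotlib 3.10.9 under Python 3.11.15.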

Additional observations from a re-analysis of the deposited data

Results flagged for a closer look

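Within 7 of the 70 sets of 4 mice formed by a gene and a diet, 1 mouse stood apart by Dixon's ratio, the gap to the nearest mouse over the range on the log2 scale, with the 95% critical value as the limit. Chance gives about 1 in 20. Control mouse F7111 was the low one for Idi1 (515 scaled read counts, ratio 0.941), Mvk (89, ratio 0.851) and Nr1h2 (592, ratio 0.988). Control mouse F2110 was the high one for Dhcr7 (870, ratio 0.845) and Mylip (698, ratio 0.907). Among the Low AA mice, H828 was high for Acat2 (927, ratio 0.904) and H1315 for Scarb1 (6543, ratio 0.964).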

How the results depend on the processing

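No paired analysis was possible because the labels give the diets no shared mouse codes. The number of genes called, 47, was 19 among the 8000 genes with the highest mean, 30 without a mean-variance trend, 132 at a threshold of 0.1 and 16 to 77 with 1 mouse left out. The number of members called, 0 with limma, was 2 at a threshold of 0.1 (Sqle and Msmo1) and 0 to 2 with 1 mouse left out, the 2 without F7111. With 1 mouse left out, 3 to 11 of 18 synthesis genes had an unadjusted p under 0.05 (all genes, 7.84% to 13.3%). In 3 to 10 of them the diets did not overlap (all genes, 7.98% to 12.7%). The median log2 fold change of the synthesis genes ran from -0.27 to -0.45, and that of uptake, efflux and esterification from -0.087 to 0.016. The remaining alternatives kept these counts within 1.5 times. The 8000 genes leave out Mvk and Mvd. Signs of log2 fold changes turned only with 1 mouse left out, in 10 of 35 genes and in none past the threshold, with ranges of -0.27 to 0.051 for Abca1, -0.042 to 0.31 for Abcg8, -0.13 to 0.062 for Ebp, -0.19 to 0.023 for Mylip, -0.091 to 0.098 for Npc1, -0.16 to 0.015 for Npc2, -0.093 to 0.034 for Nr1h2, -0.023 to 0.077 for Nr1h3, -0.16 to 0.041 for Soat2 and -0.28 to 0.14 for Stard4. The cause was not tested. With 4 mice a diet, intervals of single genes are wide, and raw depth is unknown. Count models were not run.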
